A study of Rattus norvegicus with 6 samples.

Results

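Glycolysis was followed through the transcripts of 10 enzymes in Rat-1 fibroblasts, a long-established rat line, on extracellular matrix (ECM) remodelled by matrix metalloproteinase 13 (MMP13), on ECM remodelled by matrix metalloproteinase 1 (MMP1) and on native ECM. The 10 genes, Hk2, Gpi, Pfkl, Aldoa, Tpi1, Gapdh, Pgk1, Pgam1, Eno1 and Ldha, were the rows of the gene table with these exact symbols. All 10 were present among the 17143 genes of the table, and 9 passed the filter on low values, as did 7284 genes in all. MMP1 and MMP13 are secreted collagenases, and the design asked how fibroblasts respond to matrix that either of them has degraded. Cells kept in serum-containing medium were seeded at 25000 per well in every group, and those adhering were lysed on the matrix after 4 h. Each of the 3 groups, MMP13-remodelled, MMP1-remodelled and native ECM, had 2 libraries of 3' end RNA sequencing. The labels call these duplicates and do not say that they were separate cultures, so the p-values measure only the spread between libraries, which may be technical.

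Glycolysis splits glucose into pyruvate in the cytosol and yields ATP and NADH. In its first stage hexokinase, glucose-6-phosphate isomerase and phosphofructokinase trap and activate the sugar, and aldolase and triose-phosphate isomerase turn it into glyceraldehyde 3-phosphate. In its second stage glyceraldehyde-3-phosphate dehydrogenase, phosphoglycerate kinase, phosphoglycerate mutase, enolase and pyruvate kinase recover ATP, and lactate dehydrogenase reduces pyruvate to lactate and restores NAD+. Cultured fibroblasts make much lactate even in oxygen, and many of these genes are known targets of the transcription factors HIF-1 and MYC in mammals.

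Promoter sequence is shown for Ldha, Gpi and Aldoa, the genes among the 10 with an unadjusted p under 0.05 in a comparison with native ECM below. The windows run from 250 bases before to 50 bases after an annotated start, come from RefSeq on the build GRCr8 and read 5' to 3' on the gene's strand. Windows were found for 9 of the 10 genes, and Pgk1 had no entry. Capitals mark ACGTG on either strand, the letters at the core of the hypoxia response element that HIF-1 binds. The Ldha window lies at chr1:106507842-106508141 on the plus strand, the Gpi window at chr1:95993212-95993511 on the minus strand, and the Aldoa window at chr1:190836728-190837027 on the minus strand, at the most downstream of 3 annotated starts.
Ldha: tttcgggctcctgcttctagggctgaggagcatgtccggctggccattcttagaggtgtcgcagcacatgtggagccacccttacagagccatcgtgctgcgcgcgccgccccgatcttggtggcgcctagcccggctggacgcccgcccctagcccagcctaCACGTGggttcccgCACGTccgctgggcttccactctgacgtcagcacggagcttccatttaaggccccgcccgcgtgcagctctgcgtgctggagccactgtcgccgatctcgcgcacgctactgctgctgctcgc
Gpi: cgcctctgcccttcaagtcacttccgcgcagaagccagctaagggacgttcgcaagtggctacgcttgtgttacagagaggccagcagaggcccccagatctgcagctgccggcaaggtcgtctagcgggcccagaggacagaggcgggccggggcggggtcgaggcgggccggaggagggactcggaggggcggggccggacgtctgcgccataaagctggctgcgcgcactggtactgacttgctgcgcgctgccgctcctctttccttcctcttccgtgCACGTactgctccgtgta
Aldoa: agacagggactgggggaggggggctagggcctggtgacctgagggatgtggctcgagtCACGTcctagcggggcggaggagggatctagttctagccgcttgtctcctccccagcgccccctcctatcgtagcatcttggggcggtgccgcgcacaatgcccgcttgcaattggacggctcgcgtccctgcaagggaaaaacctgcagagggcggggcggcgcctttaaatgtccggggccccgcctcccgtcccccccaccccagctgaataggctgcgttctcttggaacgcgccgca
In the Ldha window the motif CACGTG, a palindrome that holds ACGTG on both strands, begins at position -87 from the start, and a further ACGTG lies on the minus strand at position -73. The Gpi window holds 1 match and the printed Aldoa window 1, and the other 2 Aldoa windows hold 0. Over the 12 windows of the 9 genes, 6 held ACGTG and 1 held CACGTG, the window of Ldha. ACGTG was held by 19.3% and CACGTG by 6.42% of all 33469 windows from RefSeq. The 12 windows had a GC content of 51.0% to 68.3%, and the median of all windows was 51.7%, so most of these windows were richer in GC than the median. The part of base composition in the motif count was not tested. A match is a description of letters and not a binding site.

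Values are the deposited gene counts divided by 1 size factor per library, called units here. Whole reads were recovered from them, 161817 to 362122 in a library, so that a single read stood for 0.735 units in the deepest and 1.68 in the shallowest. The 9 fibroblast markers examined took 2.54% to 2.89% of reads in every library, though Col3a1 of this list had only 4 to 28 reads. Lists of leukocyte, epithelial, endothelial, muscle and erythroid markers took at most 0.00933% each. Of the epithelial list Epcam had 0 reads throughout, while Krt8 had 4 to 22 reads per library. Of the erythroid list Alas2 had 0 reads throughout, while Hba1 had 0 to 5 reads per library. The 5 leukocyte markers together took 0.00618% to 0.00801% of reads in MMP13 libraries, 0.00815% to 0.00933% in MMP1 libraries and 0.00410% to 0.00575% in native libraries, and of their 9 to 29 reads per library 6 to 27 were of Cd14. The ribosomal RNA entry Rn45s took 0.692% and 0.968% of reads in MMP13 libraries, 0.661% and 0.936% in MMP1 libraries, and 0.347% and 0.293% in native libraries. The part of either measure in the results below was not tested. Library-total scaling without the ribosomal RNA entries changed no call and no sign for the 9 tested enzymes beside the deposited scaling. Beside library-total scaling with these entries it changed no call, but Pgam1 turned sign for MMP13 against native. In these bulk samples fewer cells with a transcript and less of it per cell cannot be told apart. Levels of different genes are not compared here, and the read ratios between genes given at the end are compared only from library to library.

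None of the 9 tested genes passed in any comparison. The summed reads of the 10 genes made up 1.12% and 1.12% of reads in MMP13 libraries, 1.08% and 1.18% in MMP1 libraries, and 1.20% and 1.22% in native libraries. Both MMP13 libraries and both MMP1 libraries thus lay below both native libraries. The 95% Wilson intervals, which cover counting error only, reached 1.18% at most in MMP13 libraries and began at 1.15% and 1.19% in native libraries, and that of MMP1 replicate 2 ran from 1.14% to 1.23%. Without Aldoa the shares were 0.853% and 0.851% in MMP13 libraries, 0.790% and 0.905% in MMP1 libraries, and 0.860% and 0.920% in native libraries, so the MMP1 and native libraries then overlapped. No p is given for the sum, because the genes were chosen with results of these data known.

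**Figure D1:**
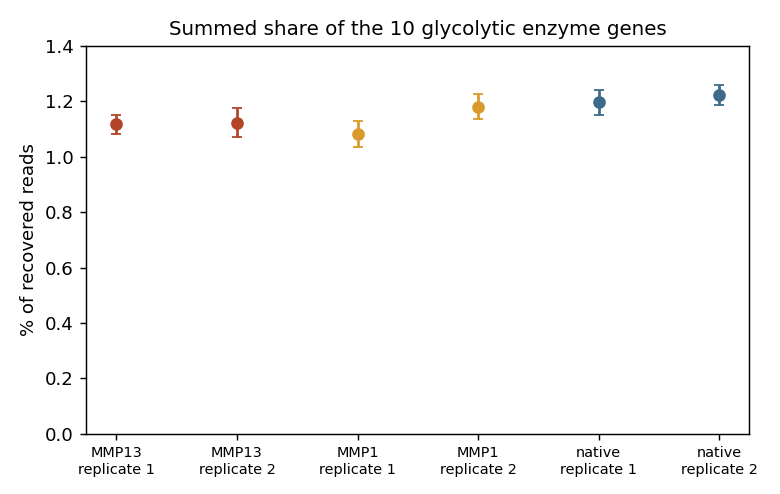
Summed share of the 10 glycolytic enzyme genes in each of the 6 libraries, in percent of recovered reads (y axis), with 95% Wilson intervals for counting error. The MMP13 and MMP1 libraries sit between 1.08% and 1.18% and the native libraries at 1.20% and 1.22%.

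The genes of the first stage came with very different depth. Hk2, the inducible hexokinase that binds mitochondria, had 2.94 and 3.36 units in MMP13 libraries, 4.38 and 3.60 in MMP1 libraries, and 1.22 and 4.53 in native libraries. These are 1 to 6 reads per library, the groups overlapped, and Hk2 was the gene that did not reach the filter of 5 units in at least 2 libraries. Pfkl, the liver-type phosphofructokinase, had 8.82 and 16.8 units in MMP13 libraries, 7.30 and 21.6 in MMP1 libraries, and 12.2 and 13.6 in native libraries. With 5 to 18 reads per library its replicates spread more than its groups differed, and the 95% interval of its log2 fold ran from -1.23 to 1.10 for MMP13 against native and from -1.18 to 1.15 for MMP1 against native.

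Gpi, the isomerase that turns glucose 6-phosphate into fructose 6-phosphate, had 119 and 78.9 units in MMP13 libraries, 118 and 136 in MMP1 libraries, and 74.1 and 98.9 in native libraries. Both MMP1 libraries lay above both native libraries, while the MMP13 libraries straddled the upper native one. The log2 fold was 0.56 for MMP1 against native (SE 0.25, 95% interval 0.079 to 1.04, unadjusted p = 0.023 and adjusted p = 0.47 by limma). Gpi had a log2 fold of 0.18 for MMP13 against native (SE 0.25, limma adjusted p = 0.92), and -0.12 without MMP13 replicate 1. Adjusted p-values for Gpi in MMP1 against native ran from 0.32 to 1 over the alternatives.

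Aldoa, the aldolase that cleaves fructose 1,6-bisphosphate, had 702 and 739 units in MMP13 libraries, 783 and 742 in MMP1 libraries, and 899.5 and 792 in native libraries. It was the gene of the 9 tested whose 4 libraries on remodelled ECM all lay below both native libraries, a position held by 8.70% of all tested genes. The means were 721 ± 25.8 units on MMP13-remodelled, 762 ± 29.0 on MMP1-remodelled and 846 ± 76.3 on native ECM (SD, n = 2 each). The log2 fold was -0.23 for MMP13 against native (SE 0.12, 95% interval -0.45 to -0.0015, unadjusted p = 0.049 and adjusted p = 0.61 by limma) and -0.15 for MMP1 against native (SE 0.12, limma adjusted p = 0.77). Without native replicate 1, the highest library, the log2 fold was -0.14 for MMP13 against native and -0.055 for MMP1 against native, and without native replicate 2 the value for MMP1 was -0.24.

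Tpi1, triose-phosphate isomerase, had 66.2 and 53.7 units in MMP13 libraries, 78.9 and 66.0 in MMP1 libraries, and 68.1 and 70.2 in native libraries. Both MMP13 libraries lay below the native ones, and the MMP1 libraries lay on either side of them. Its log2 fold was -0.21 for MMP13 against native (SE 0.29) and 0.061 for MMP1 against native (SE 0.29), with limma adjusted p of 0.92 and 0.98.

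**Figure D2:**
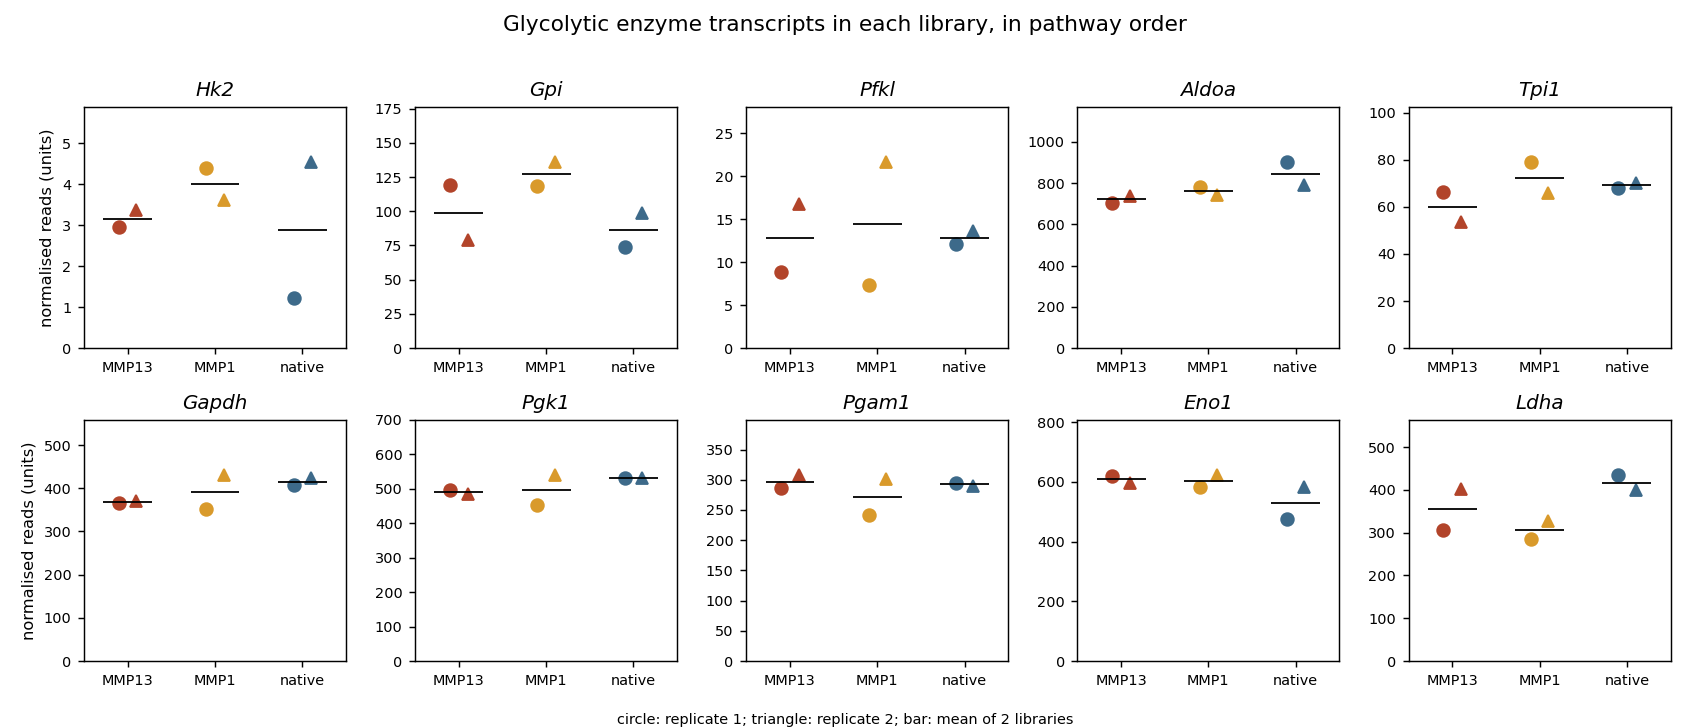
Normalised reads (units, linear y axis from 0) of the 10 glycolytic enzyme genes in MMP13, MMP1 and native libraries. Points are libraries and bars are means of 2. Aldoa lies lower in all 4 libraries on remodelled ECM than in both native ones, Ldha has its lowest group mean in MMP1 libraries (307 units), and Hk2 rests on 1 to 6 reads per library.

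The 4 enzymes of the second stage had replicates that mostly lay close together. Gapdh, the oxidising enzyme of the pathway and a common reference gene for expression assays, had 365 and 369 units in MMP13 libraries, 352 and 429.7 in MMP1 libraries, and 407 and 423 in native libraries. Both MMP13 libraries lay below both native ones, while MMP1 replicate 2 was the highest of all. The log2 fold of Gapdh was -0.18 for MMP13 against native (SE 0.15, 95% interval -0.47 to 0.11) and -0.093 for MMP1 against native (SE 0.15, 95% interval -0.38 to 0.20). Its limma adjusted p was 0.83 and 0.92.

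Pgk1, the first ATP-forming enzyme, had 497 and 484 units in MMP13 libraries, 453 and 539 in MMP1 libraries, and 530.0 and 531 in native libraries. The native libraries were nearly equal, the MMP13 libraries lay below them, and the MMP1 libraries lay on either side. The log2 fold was -0.11 for MMP13 against native (SE 0.13, 95% interval -0.38 to 0.15, limma adjusted p = 0.90) and -0.10 for MMP1 against native (SE 0.13, limma adjusted p = 0.89).

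Pgam1, the mutase that moves the phosphate of phosphoglycerate, had 286 and 307 units in MMP13 libraries, 242 and 301 in MMP1 libraries, and 295 and 290.5 in native libraries. The groups overlapped in both comparisons with native. Its log2 fold was 0.017 for MMP13 against native (SE 0.17, 95% interval -0.31 to 0.34) and -0.12 for MMP1 against native (SE 0.17, 95% interval -0.44 to 0.21).

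Eno1, the enolase that forms phosphoenolpyruvate, had 620.0 and 596 units in MMP13 libraries, 581 and 622 in MMP1 libraries, and 474 and 583 in native libraries. Both MMP13 libraries lay above both native ones, and MMP1 replicate 1 lay just below native replicate 2. The means were 608 ± 16.9 units on MMP13-remodelled, 602 ± 28.7 on MMP1-remodelled and 528 ± 76.7 on native ECM (SD, n = 2 each). The log2 fold was 0.21 for MMP13 against native (SE 0.13, 95% interval -0.041 to 0.46, limma adjusted p = 0.72) and 0.19 for MMP1 against native (SE 0.13, limma adjusted p = 0.73). Both values leaned on native replicate 1, and without it they were 0.061 and 0.045.

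Ldha encodes the A subunit of lactate dehydrogenase, the muscle-type subunit that favours lactate formation. It had 306 and 403 units in MMP13 libraries, 286 and 328 in MMP1 libraries, and 434 and 400.0 in native libraries. Both MMP1 libraries lay below both native ones, whereas MMP13 replicate 2 lay between the native libraries. The means were 354 ± 68.6 units on MMP13-remodelled, 307 ± 29.3 on MMP1-remodelled and 417 ± 24.0 on native ECM (SD, n = 2 each). The log2 fold was -0.44 for MMP1 against native, or 0.736-fold (SE 0.15, 95% interval -0.74 to -0.14), with the smallest unadjusted p of the 9 genes (0.0037 by limma) and an adjusted p of 0.24. By edgeR the adjusted p was 0.22, and over all alternatives it ran from 0.17 to 1. With each library left out in turn, the log2 fold ran from -0.54 to -0.35. The value for MMP13 against native was -0.25 (SE 0.15, limma adjusted p = 0.73), -0.44 without MMP13 replicate 2 and -0.048 without MMP13 replicate 1.

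On MMP13-remodelled against native ECM, 0 of the 9 tested genes passed by limma (adjusted p under 0.05), where 0.412% of all tested genes did, 0.275% higher and 0.137% lower. One gene, Aldoa, had an unadjusted p under 0.05, as did 8.05% of all tested genes. By edgeR 0 of 9 passed (0.700% of its tested genes did), and DESeq2 called 0 of the 8 with an adjusted p (3.03% of those it adjusted over). The libraries did not overlap for 5 of the 9. Eno1 lay higher, a position of 18.9% of tested genes, and Aldoa, Gapdh, Pgk1 and Tpi1 lay lower, a position of 18.6% of tested genes. The median log2 fold of the 9 was -0.11, with 6 of 9 below 0, beside a median of 0.0088 over all tested genes, of which 49.5% were below 0. Across the alternative scalings of the same libraries the median of the 9 stayed between -0.14 and -0.076.

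On MMP1-remodelled against native ECM, 0 of 9 passed by limma, where 0.151% of tested genes did, 0.137% higher and 0.0137% lower. Ldha and Gpi had an unadjusted p under 0.05, as did 8.24% of tested genes. By edgeR 0 of 9 passed (0.219% of its tested genes did), and DESeq2 called 0 of 10 (0.00679%). The libraries of Gpi lay higher without overlap, a position of 19.6% of tested genes, and those of Aldoa and Ldha lay lower, a position of 18.8%. The median log2 fold was -0.093, with 6 of 9 below 0, beside 0.016 over all tested genes, of which 48.9% were below 0. That median was 0.040 without MMP1 replicate 1 and -0.23 without MMP1 replicate 2, so its sign rested on MMP1 replicate 1, in which Gapdh, Pgk1, Pgam1, Eno1, Ldha, Gpi and Pfkl lay below MMP1 replicate 2.

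The data set bounds on these differences. For MMP13 against native, the 95% limma interval lay within a 2-fold change in either direction for 8 of 9 genes and within a 1.5-fold change for 6. For MMP1 against native the counts were 7 and 5, with Gpi (upper end 1.04) and Pfkl reaching past 2-fold. These errors were taken from the trend of spread with level over all genes. The gene's own spread was above that trend for Eno1 (SD 0.130 against 0.128 on the log2 scale), Ldha (0.187 against 0.153), Gpi (0.303 against 0.245) and Pfkl (0.689 against 0.593), and below it for the other 5. Intervals from a gene's own replicates, with 3 degrees of freedom, were not computed.

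**Figure D3:**
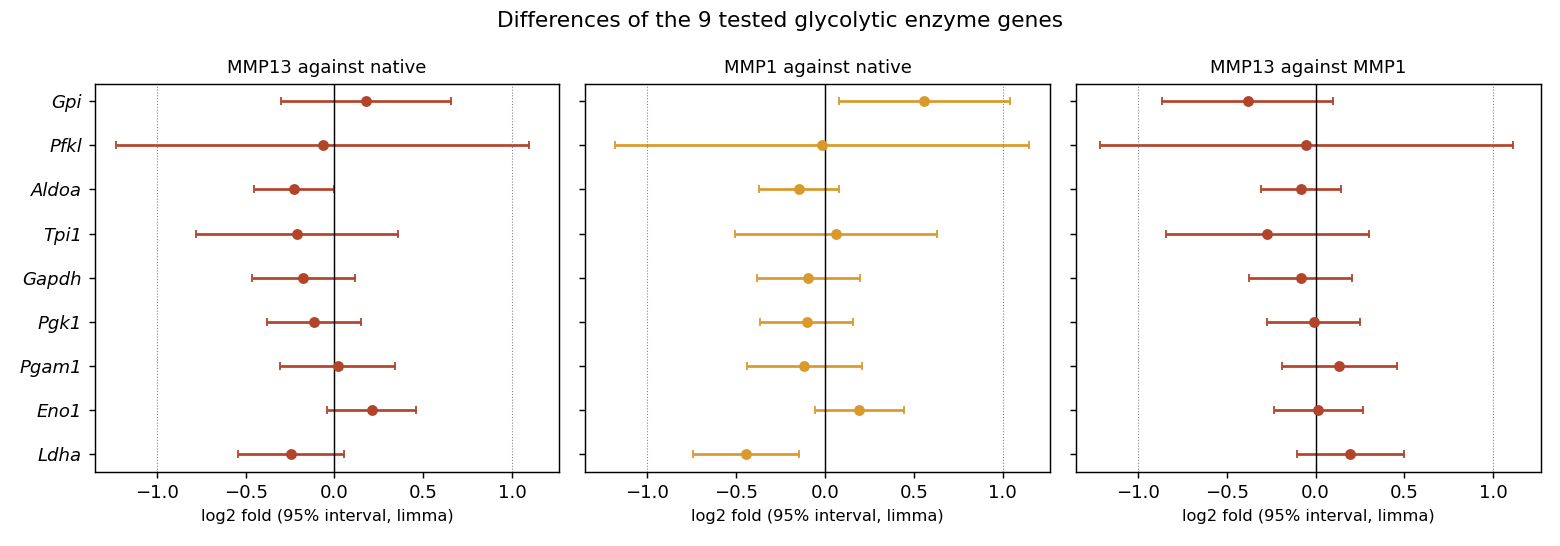
Log2 folds (x axis) of the 9 tested glycolytic enzyme genes with 95% limma intervals, in pathway order from Gpi to Ldha, for MMP13 against native, MMP1 against native and MMP13 against MMP1. Dotted lines mark a 2-fold change. The intervals of Ldha and Gpi for MMP1 against native and of Aldoa for MMP13 against native leave out 0 before adjustment for 7284 genes.

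The remodelled matrices were also set against each other. The log2 folds here compare MMP13 with MMP1 libraries only, while the filter and the spread behind SE and p came from all 6 libraries. Of MMP13 against MMP1, 0 of 9 passed by limma, where 0.0412% of tested genes did, and 0 of 9 had an unadjusted p under 0.05 (5.22% of tested genes). By edgeR 0 of 9 passed (0.0437%) and by DESeq2 0 of 10 (0.00679%). The largest log2 fold in size was that of Gpi, at -0.38 (SE 0.25, 95% interval -0.86 to 0.099), followed by Tpi1 at -0.27 (SE 0.29) and Ldha at 0.20 (SE 0.15, 95% interval -0.10 to 0.50). These values leaned on single libraries: Gpi had -0.088 without MMP13 replicate 2 and -0.68 without MMP13 replicate 1, Tpi1 -0.12 without MMP13 replicate 2 and -0.42 without MMP13 replicate 1, and Ldha -0.0016 without MMP13 replicate 2. Aldoa had a log2 fold of -0.081 (SE 0.12), and its MMP13 libraries lay below its MMP1 libraries, by 739 against 742 units between the nearest of them, a position without overlap that 15.4% of tested genes held. None of the 9 lay higher without overlap, a position of 15.9% of tested genes. The median log2 fold of the 9 was -0.051, with 6 of 9 below 0, where 50.2% of all tested genes were below 0. Both comparisons with native used the same 2 native libraries, and their values are given side by side above and not correlated.

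Isoenzymes and near relatives of the 10 had 22 listed genes, of which 21 were in the table. In either comparison with native 0 of the 11 tested by limma and 0 of the 10 tested by edgeR passed. Of all tested genes 0.412% passed by limma and 0.700% by edgeR for MMP13 against native. For MMP1 against native these shares were 0.151% and 0.219%. Pkm, the pyruvate kinase that follows enolase, had 538 and 541 units in MMP13 libraries, 568 and 549 in MMP1 libraries, and 614 and 549 in native libraries. Its log2 fold was -0.11 for MMP13 against native (SE 0.13) and -0.057 for MMP1 against native (SE 0.13), with limma adjusted p of 0.90 and 0.95. Hk1, the constitutive hexokinase, had 52.2 and 50.4 units in MMP13 libraries, 45.3 and 45.6 in MMP1 libraries, and 59.6 and 43.0 in native libraries, with log2 folds of 0.018 and -0.15 (SE 0.33 each). Hk1 rested on 30 to 71 reads per library.

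The platelet-type phosphofructokinase gene Pfkp had 25.0 and 16.8 units in MMP13 libraries, 21.9 and 24.0 in MMP1 libraries, and 29.2 and 34.7 in native libraries. All 4 libraries on remodelled ECM lay lower, a position of 8.70% of tested genes. The log2 folds were -0.61 and -0.46 (SE 0.44 each), with limma adjusted p of 0.78 and 0.82. The neuronal enolase gene Eno2 had 25.00 and 25.2 units in MMP13 libraries, 27.7 and 15.6 in MMP1 libraries, and 25.5 and 27.2 in native libraries. Ldhb, the heart-type subunit of lactate dehydrogenase, had 0 to 6 reads per library and was not tested, and Aldoc, Pklr and Ldhc had at most 2 reads in any library. Adpgk, an ADP-dependent glucokinase, had log2 folds of 0.83 for MMP13 and -1.94 for MMP1 against native (SE 0.97 each). Its log2 fold for MMP13 against MMP1 was 2.77 (SE 0.97). The limma adjusted p-values were 0.90, 0.60 and 0.80. Adpgk rested on 18 and 6 reads in MMP13, 0 and 2 in MMP1, and 2 and 18 in native libraries.

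Galm, the aldose mutarotase that interconverts glucose anomers, had 22.1 and 23.5 units in MMP13 libraries, 26.3 and 30.0 in MMP1 libraries, and 8.51 and 12.1 in native libraries. Pgm1, the phosphoglucomutase that links glucose 6-phosphate with glycogen and nucleotide sugars, had 19.9 and 23.5 units in MMP13 libraries, 27.7 and 38.4 in MMP1 libraries, and 15.8 and 12.8 in native libraries. For both genes all 4 libraries on remodelled ECM lay above both native ones, a position of 8.91% of tested genes. The log2 fold for MMP1 against native was 1.38 for Galm (SE 0.50, limma adjusted p = 0.29) and 1.14 for Pgm1 (SE 0.47, limma adjusted p = 0.42). The values for MMP13 against native were 1.09 for Galm (SE 0.50, limma adjusted p = 0.52) and 0.57 for Pgm1 (SE 0.47, limma adjusted p = 0.82). Galm rested on 7 to 30 and Pgm1 on 13 to 32 reads per library.

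Among the 12 genes of glucose, lactate and pyruvate transport, 0 of the 7 tested by limma passed in either comparison with native. The shares of all tested genes were 0.412% for MMP13 and 0.151% for MMP1. By edgeR 0 of the 4 tested passed, beside 0.700% and 0.219%. Bsg encodes basigin, the glycoprotein that carries the lactate transporters to the membrane and is also known as an inducer of metalloproteinases. It had 588 and 626 units in MMP13 libraries, 637 and 622 in MMP1 libraries, and 762 and 795 in native libraries. All 4 libraries on remodelled ECM lay below both native ones, a position of 8.70% of tested genes. The log2 fold was -0.36 for MMP13 against native and -0.31 for MMP1 against native (SE 0.12 each). The unadjusted p was 0.0032 and 0.012 and the adjusted p 0.26 and 0.39 by limma. Slc2a1, the glucose transporter GLUT1, had 52.9 and 57.1 units in MMP13 libraries, 43.8 and 55.2 in MMP1 libraries, and 38.9 and 33.2 in native libraries. Its 4 libraries on remodelled ECM all lay above both native ones, a position of 8.91% of tested genes. The log2 folds were 0.60 and 0.44 (SE 0.34 each), with limma adjusted p of 0.67 and 0.77. The lactate transporter gene Slc16a1 had 16.8 to 27.9 units over the 6 libraries and the other, Slc16a3, had 1 to 5 reads per library. Slc16a7, a further transporter of lactate and pyruvate, had a log2 fold of 1.63 for MMP13 against native (SE 1.15, limma adjusted p = 0.78). It rested on 7 and 5 reads in MMP13 libraries, 9 and 0 in MMP1 libraries, and 2 and 1 in native libraries. Mpc2, a subunit of the mitochondrial pyruvate carrier, had a log2 fold of -0.74 for MMP1 against native (SE 0.75, limma adjusted p = 0.83), on 3 to 20 reads per library.

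**Figure D4:**
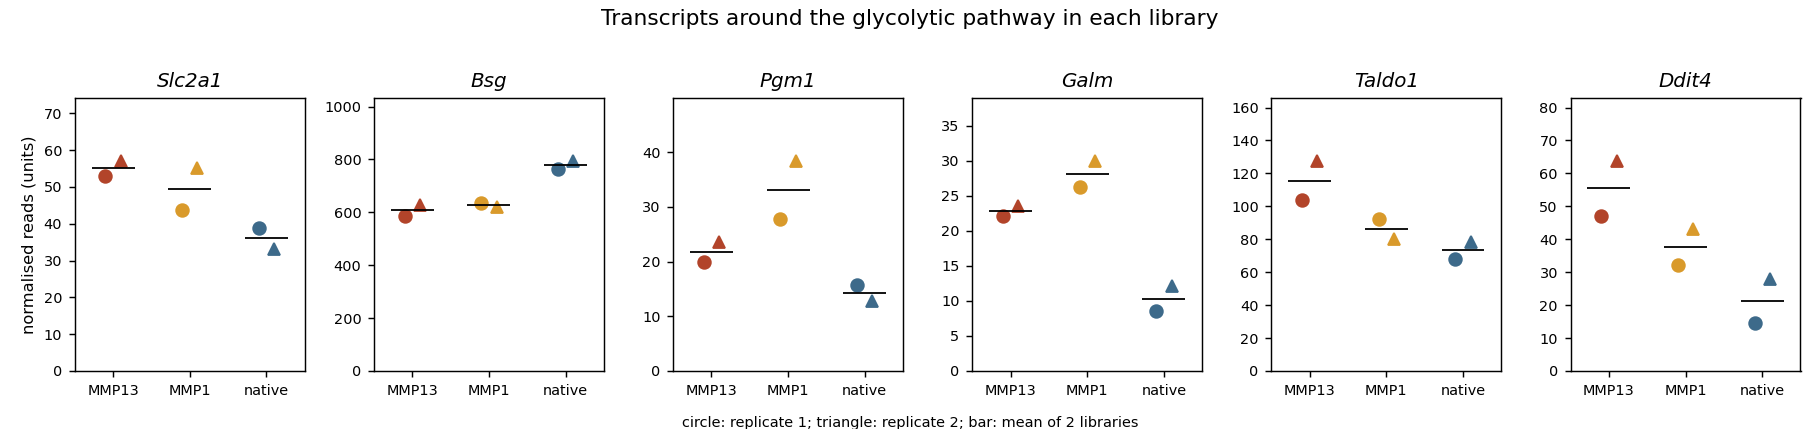
Normalised reads (units, linear y axis from 0) of Slc2a1, Bsg, Pgm1, Galm, Taldo1 and Ddit4 in MMP13, MMP1 and native libraries, chosen after their values were seen. Points are libraries and bars are means of 2. Bsg lies between 588 and 637 units in libraries on remodelled ECM and at 762 and 795 in native ones, and none of the 6 genes passed by limma.

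In all, 7 lists of genes around the pathway held 95 genes, of which 91 were in the table and 57 were tested. Of the 57, 0 passed by limma and 0 of the 49 that edgeR tested passed, in any of the 3 comparisons. Over all tested genes limma called 0.412% for MMP13 against native, 0.151% for MMP1 against native and 0.0412% for MMP13 against MMP1. The shares by edgeR were 0.700%, 0.219% and 0.0437%. With shares this low, 0 calls do not set the lists apart from other genes. At an unadjusted p under 0.05, limma had 5 higher and 3 lower for MMP13 against native (8.05% of all tested genes in either direction). It had 4 higher and 2 lower for MMP1 against native (8.24%), and 1 higher and 2 lower for MMP13 against MMP1 (5.22%). DESeq2 called 0 of the 7 with an adjusted p for MMP13 against native (3.03% of those it adjusted over). It called 0 of 88 for MMP1 against native (0.00679%). The median log2 fold of the 57 was -0.067 and 0.0095, beside 0.0088 and 0.016 over all tested genes.

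The lowest adjusted p belonged to Ddit4, an inhibitor of the growth kinase mTORC1 that hypoxia and other stresses induce. It had 47.1 and 63.8 units in MMP13 libraries, 32.1 and 43.2 in MMP1 libraries, and 14.6 and 27.9 in native libraries. All 4 libraries on remodelled ECM thus lay above the native ones, a position of 8.91% of tested genes. The log2 fold was 1.39 for MMP13 against native (SE 0.38, adjusted p = 0.058 by limma and 0.063 by edgeR) and 0.85 for MMP1 against native (SE 0.38, limma adjusted p = 0.49). Ddit4 had a limma adjusted p for MMP13 against native of 0.029 with the stricter filter on low values. DESeq2 gave it no adjusted p in this comparison, and it did not pass under the other alternatives with all 6 libraries. Over all alternatives its log2 fold ran from 0.95 to 1.84, the latter without native replicate 2.

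Of the other 12 tested hypoxia-inducible genes, P4ha1, a collagen prolyl hydroxylase subunit, had log2 folds of 0.89 and 0.78 (SE 0.38 each; limma adjusted p of 0.47 and 0.59). Vegfa, the vascular growth factor, had one of -0.72 for MMP13 against native (SE 0.35, limma adjusted p = 0.58) and 0.0095 for MMP1 against native (SE 0.35). It had 36.8 and 25.2 units in MMP13 libraries, 55.5 and 46.8 in MMP1 libraries, and 37.7 and 67.9 in native libraries. Bnip3l, a mitophagy receptor, had log2 folds of -0.12 for MMP13 and -0.53 for MMP1 against native (SE 0.48 each). The HIF-1 subunit gene Hif1a had 9.06 to 20.7 units over the 6 libraries.

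The pentose phosphate pathway, which branches off at glucose 6-phosphate and makes NADPH, had 6 tested genes. Taldo1, transaldolase, had 104 and 128 units in MMP13 libraries, 92.0 and 80.4 in MMP1 libraries, and 68.1 and 78.5 in native libraries, with log2 folds of 0.65 and 0.23 (SE 0.26 each) and limma adjusted p of 0.41 and 0.86. Pgls, the lactonase of the pathway, had log2 folds of 1.07 and 0.93 (SE 0.62 each), and transketolase, Tkt, of 0.41 and 0.34 (SE 0.35 each). In the branches to serine and hexosamines, with 9 tested genes, Gnpnat1, which acetylates glucosamine 6-phosphate, had log2 folds of 1.32 and 0.84 (SE 0.55 each). The mitochondrial serine hydroxymethyltransferase Shmt2 had -0.49 and -0.23 (SE 0.23 each), and Psat1 of serine synthesis -0.54 and -0.11 (SE 0.29 each). Uap1 of the hexosamine branch had 0.56 and 0.41 (SE 0.31 each). Phgdh of serine synthesis had -0.27 for MMP13 against native and 0.44 for MMP1 against native (SE 0.37 each), so its sign differed. Limma adjusted p-values of the genes named from the serine and hexosamine branches were at least 0.435. Those of Pgls were 0.69 and 0.74 and those of Tkt 0.84 and 0.83. Pgls rested on 7 to 21 and Gnpnat1 on 6 to 28 reads per library.

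Among 7 tested regulators of flux, the pyruvate dehydrogenase kinase gene Pdk3 had log2 folds of 0.91 and 0.91 for MMP13 and for MMP1 against native (SE 0.58 each). In the same order Dld, a subunit of pyruvate dehydrogenase, had -0.32 and -0.17 (SE 0.35 each). The phosphatase gene Pdp2 had -0.36 and 0.29 (SE 0.73 each). Pdha1 had 0.20 and 0.44 (SE 0.61 each) and Pdp1 -0.29 and -0.37 (SE 0.70 each). Of the 4 tested genes of gluconeogenesis and the glycerol branch, the mitochondrial glycerol-3-phosphate dehydrogenase Gpd2 had 0.84 and 1.00 (SE 0.61 each), pyruvate carboxylase, Pc, 0.31 and -0.66 (SE 0.53 each) and the glucose-6-phosphatase gene G6pc3 -0.18 and -0.23 (SE 0.37 each). Their limma adjusted p-values were at least 0.705. Gpd2 rested on 6 to 23 reads per library.

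**Figure D5:**
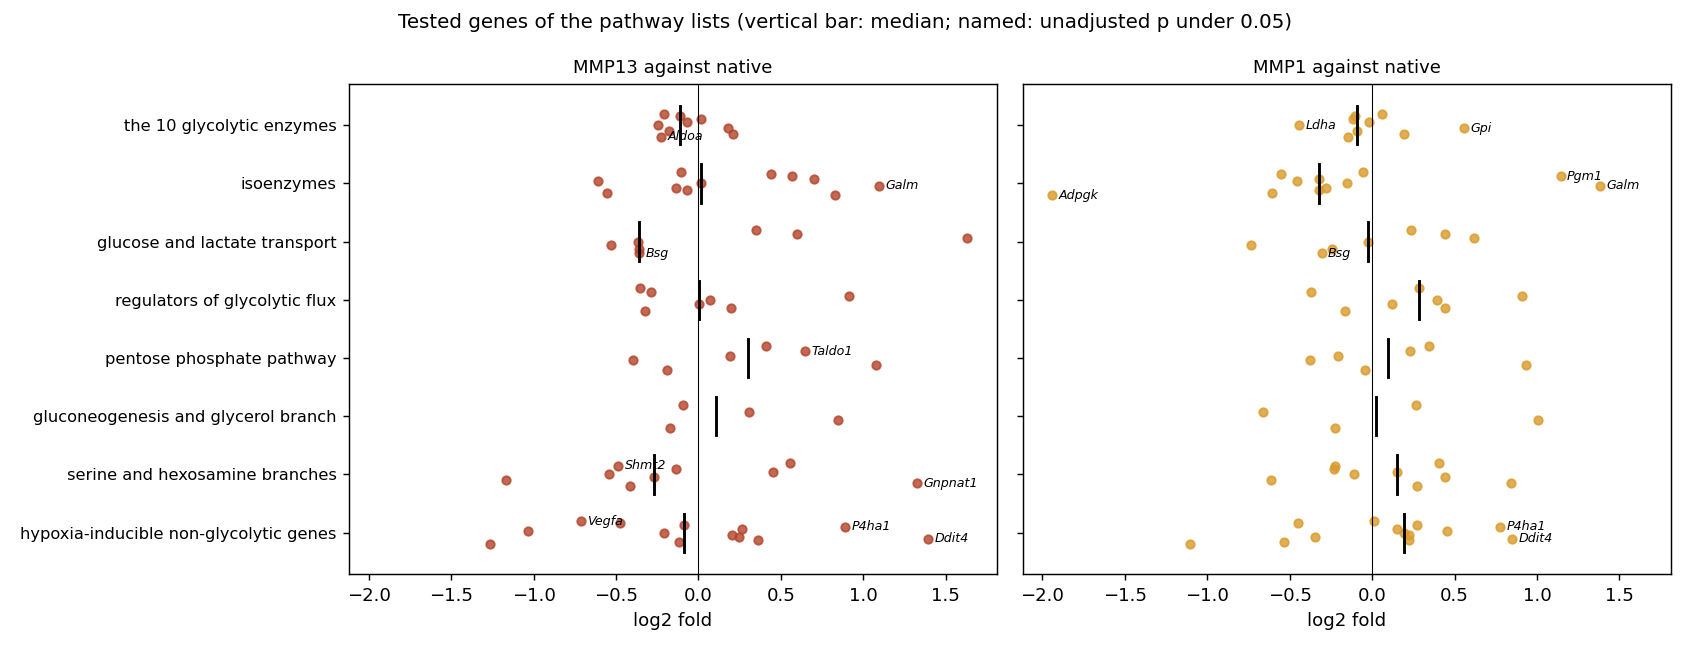
Log2 folds (x axis) of the tested genes in the group of 10 enzymes and in the 7 lists around it (rows), for MMP13 against native and MMP1 against native. Each point is a gene, the vertical bar is the list's median, and genes with an unadjusted p under 0.05 are named. The 9 tested enzymes lie between -0.25 and 0.21 for MMP13 and between -0.44 and 0.56 for MMP1.

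The 9 genes lay at different distances from their mean profile over the libraries. The part of counting error in these distances was not tested. The root mean square difference between a gene's centred log2 values over the 6 libraries and the mean profile of the 9, to which the gene itself adds, was 0.047 for Gapdh and 0.050 for Pgk1, and 0.21 for Ldha, 0.31 for Gpi and 0.41 for Pfkl, where low reads add to it. Of 474 other tested genes with a mean of at least 100 units, those closest to the mean profile were Flna, an actin crosslinker (0.057), Calu, a calcium-binding protein of the secretory pathway (0.058), Map4k4, a kinase (0.059), Eif3c, a translation initiation factor subunit (0.064), and Psmb5, a proteasome subunit (0.064). The mean profile ran from -0.12 in MMP1 replicate 1 to 0.15 in MMP1 replicate 2 on the centred log2 scale, so its extremes lay within 1 group.

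Near-identical copies can share reads with these genes, and the sources used here do not say how the counting treated such reads. The pseudogene entry Gapdh-ps1 had 0 to 5 reads per library. Aldoart2, a retrogene copy of Aldoa, had 17 to 42 reads and log2 folds of 0.20 and 0.17 (SE 0.42 each). Ldhal6b had 0 reads in every library, which allows up to 2.21 units in the deepest library and 5.04 in the shallowest. None of the 10 genes had the same reads in all 6 libraries as another row of the table.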

How the data were processed

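The deposited table holds 17143 genes and 1 column per library, in rat symbols. TopHat, bcl2fastq and DESeq are named without versions, with the build rn5, per the submitters' processing notes. The counter, annotation, strand use and collapsing of the 8-nucleotide molecular identifiers are not stated there or in the labels. What the authors deposited is a signal: read counts per gene over a size factor for each library. This was read from the values, 100% of which came out as whole reads in every library (tolerance 0.01 reads).

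The whole table was fitted with limma 3.58.1 in R 4.3.3 on log2(value + 1), with 1 coefficient per group, all 6 libraries, no replicate block and an intensity trend, for genes that reached 5 units in 2 or more libraries. Genes were called at 0.05 after Benjamini-Hochberg adjustment over all 7284 tested. The spread was pooled over genes (21852 degrees of freedom, where a gene alone has 3). Folds on this scale understate changes of low genes. Recovered reads were also tested with edgeR 4.0.16 (quasi-likelihood, TMM) and DESeq2 1.42.0 (Wald). Fits were tested on simulated data. Other alternatives changed the scaling, filter, pseudocount, variance model or libraries.

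The 10 genes and the lists were chosen with earlier results of these data known. Named were the 10 genes, the 5 closest profiles and isoenzymes with a mean of at least 20 units. Of each other list, up to 3 genes were named by smallest unadjusted p per comparison with native. Outside that rule Ldhb, Aldoc, Pklr and Ldhc were named, and Adpgk, Slc16a1, Slc16a3 and Hif1a were added, after their values were seen. Hkdc1, Tigar, Pgd and Egln1 matched no row by symbol or synonym and were not analysed here.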

Additional observations from a re-analysis of the deposited data

How the results depend on the processing

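None of the 9 tested enzymes passed in any comparison under those of the 20 alternatives that tested it, 6 of which left out a library, and the lowest adjusted p was 0.17 (Ldha, MMP1 against native, stricter filter). Pfkl was not tested under the stricter filter and had no DESeq2 adjusted p for MMP13 against native. Hk2 was tested with no filter and, where it had an adjusted p, by DESeq2, and did not pass. Where 1 library of a group is left, it is assumed to vary like the others. Depth limits Hk2 and Pfkl most. The limma fit without trend called 0 of all tested genes in each comparison, with 442, 507 and 377 genes at an unadjusted p under 0.05 for MMP13 against native, MMP1 against native and MMP13 against MMP1, and the cause of this and the following shifts was not tested. For MMP13 against native, where 30 of all tested genes passed, 8 did with TMM factors, 13 with no filter, 18 with a pseudocount of 0.5, 18 with only the 2 groups compared, and 6 to 35 with a library left out. For MMP1 against native (11 genes) it was 2 with TMM factors, 1 by DESeq2 and 3 to 17 with a library left out, and for MMP13 against MMP1 (3 genes) 1 by DESeq2 and 1 to 27. The mean summed share was 1.13% in MMP13, 1.14% in MMP1 and 1.21% in native libraries without the ribosomal RNA entries, and 0.852% in MMP13, 0.848% in MMP1 and 0.890% in native libraries without Aldoa.

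Same-numbered libraries did not deviate together (r over 7284 genes of -0.072, 0.0059 and -0.045). Counting error in low genes weakens such a correlation, so it cannot show whether they shared a day or culture. With the replicate block the calls over all genes were 21, 11 and 2, and 0 of the 9 enzymes passed.

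Of 27 log2 folds of the enzymes, 13 kept their sign under every alternative run and 14 did not. For MMP13 against native, Pgam1 had -0.0057 with library-total scaling, -0.042 with quantile scaling, -0.012 with TMM factors and -0.034 to 0.069 with a library left out; Gpi had -0.12 to 0.47 and Pfkl -0.50 to 0.36 with a library left out. For MMP1 against native, leaving out a library gave -0.24 to 0.051 for Gapdh, -0.23 to 0.022 for Pgk1, -0.27 to 0.040 for Pgam1 and -0.065 to 0.19 for Tpi1, the sign turning without MMP1 replicate 1 in each. Pfkl had 0.019 with a pseudocount of 5, 0.19 by edgeR, 0.17 by DESeq2 and -0.74 to 0.71 with a library left out. For MMP13 against MMP1, Pgk1 had 0.0034 with quantile scaling and 0.020 with TMM factors. Leaving out a library gave -0.14 to 0.11 for Pgk1, -0.23 to 0.061 for Gapdh, -0.023 to 0.29 for Pgam1, -0.032 to 0.065 for Eno1, -0.0016 to 0.39 for Ldha and -0.77 to 0.67 for Pfkl.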

Other observations

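Ratios of reads between genes within a library do not depend on how libraries are scaled. The pairs below were chosen after the values were seen, so no test is given. Reads of Ldha over reads of Eno1 were 0.493 and 0.676 in MMP13 libraries, 0.492 and 0.527 in MMP1 libraries, and 0.915 and 0.687 in native libraries. All 4 libraries on remodelled ECM lay below both native ones, MMP13 replicate 2 only just. Aldoa over Eno1 was 1.13 and 1.24 in MMP13 libraries, 1.35 and 1.19 in MMP1 libraries, and 1.90 and 1.36 in native libraries, where again native replicate 1 stood apart and native replicate 2 lay close to MMP1 replicate 1. Gpi over Aldoa was 0.170 and 0.107 in MMP13 libraries, 0.151 and 0.183 in MMP1 libraries, and 0.0824 and 0.125 in native libraries. The MMP13 and native libraries overlapped and the MMP1 libraries lay above both native ones. That position was fixed by the single genes, since Gpi lay higher and Aldoa lower in both MMP1 libraries, and it adds nothing to them. Slc2a1 over Bsg was 0.0901 and 0.0912 in MMP13 libraries, 0.0688 and 0.0888 in MMP1 libraries, and 0.0510 and 0.0418 in native libraries. Its separation was likewise fixed, since Slc2a1 lay higher and Bsg lower in all 4 libraries on remodelled ECM. Ldha over Pkm was 0.568 and 0.745 in MMP13 libraries, 0.504 and 0.597 in MMP1 libraries, and 0.707 and 0.728 in native libraries, with MMP13 replicate 2 above both native libraries.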
